A study of Homo sapiens with 12 samples.

Results

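The ATF4 arm of the stress response was examined in SH-SY5Y, an established human line derived from a neuroblastoma, through 35 genes that make up its factors, its feedback and the supply of amino acids. The genes were taken by name, without the aminoacyl-tRNA synthetases, and each was read from the probe set that carries its symbol alone and has the highest mean over the 12 arrays. Of the 35, 34 had such a probe set, out of 19775 genes in all, and 30 had a mean level at or above the median of all probe sets (log2 3.79) and were tested among 11767 genes. GPT2 had none here, and CHAC1, NUPR1, STC2 and SLC6A9 lay under that level. The choice of genes was made with earlier results of these data known.

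The study hybridised RNA of amyloid β-protein (Aβ, written Ab in the labels) experiments to Affymetrix arrays. Its groups were fibrillar Aβ with an incubation of 24 h, control at 24 h, oligomeric Aβ with an incubation of 6 h, and control at 6 h, with 3 arrays each. All came from the same line grown in D-MEM/F-12 medium, and no dose, peptide length or vehicle is given. Fibrils were studied at 24 h alone and oligomers at 6 h alone, so form and time cannot be told apart. Whether the hours count how long cells were exposed or how long peptide was aged is not stated. Nothing says that the 3 replicates were separate cultures, and the p-values cover no more than the variation among these arrays, which may be technical.

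ATF4 is a transcription factor whose messenger RNA is translated best when the initiation factor eIF2 is phosphorylated. The eIF2 kinases sense unfolded proteins in the endoplasmic reticulum, missing amino acids, viral RNA or lack of haem. ATF4 then switches on genes that import and make amino acids, and, with its partners of the C/EBP family, genes such as DDIT3 that can turn the response towards cell death. Because ATF4 is controlled largely at translation, its own transcript is an incomplete measure of its activity.

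ATF4 and C/EBP proteins bind composite sites known as C/EBP-ATF response elements. Their core, searched here as TGATGNAA on either strand in the 250 bases before each annotated start, was found before 5 of the 27 members with a promoter entry (18.5%) and before 3.89% of 27305 genes. The 5 stretches are shown because they hold this core and 1 of the genes, ASNS, rose with fibrils. Sequences are from RefSeq, build GRCh38.p14, on the strand of the gene, and capitals mark the core or its reverse complement.
ASNS: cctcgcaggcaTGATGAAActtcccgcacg
CEBPG: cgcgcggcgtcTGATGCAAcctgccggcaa
JDP2: atagccggggcTGATGCAAcccgtccc
SLC1A5: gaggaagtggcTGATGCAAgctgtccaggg
CHAC1: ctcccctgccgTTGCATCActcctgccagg
The ASNS stretch is chr7:97872458-97872487 on the minus strand, and its core begins 68 bases before a start. That of CEBPG is chr19:33374060-33374089 (plus strand, 42 bases before a start) and that of JDP2 is chr14:75427995-75428021 (plus strand, 16 bases). SLC1A5 has its core 97 bases before a start at chr19:46784893-46784922 (minus strand), and CHAC1 has the reverse complement 209 bases before its start at chr15:40953251-40953280 (plus strand). CEBPG, JDP2, SLC1A5 and ASNS have more than 1 annotated start, and the match stands before at least 1 of them, to which the distance is given. A match is a string of letters and no evidence of binding, and its absence from these windows says nothing of sites elsewhere.

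The values are log2 MAS5 signals, with array medians from 3.89 to 4.12. Of the neuroblastoma markers, 11 of 12 with a probe set passed the filter, among them PHOX2A, GATA3 and DBH. TH, the first enzyme of catecholamine synthesis, had a mean log2 signal of 0.73. Of the markers of other cells, 2 of 6 epithelial, 1 of 6 blood and endothelial and 1 of 4 glial genes passed, and the summed linear signal of these lists ran from 17.1 to 99.7 over the arrays, against 19048 to 20974 for the neuroblastoma list. Of 8 genes of the mesenchymal type of neuroblastoma, 6 passed, with a summed signal of 9852 to 12025.

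With fibrillar Aβ, 3 of the 30 tested members rose and none fell: DDIT3, CEBPB and ASNS. That is 10% of the members, against 1.19% of all genes called in either direction and 0.799% called higher (limma, Benjamini-Hochberg adjusted p below 0.05). Means were higher with fibrils for 23 members, against 49.9% of all genes, and the median change was 0.21 on the log2 scale, against -0.00051 over all genes. For 12 members the fibrillar arrays lay wholly above the controls (40%, with 10.9% among all genes). For 1, ALDH1L2, they lay wholly but only narrowly below (3.33%, with 8.73%). The 3 fibrillar arrays had 19, 25 and 23 of the 30 members above the 24 h control mean.

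DDIT3, also called CHOP, the transcription factor tied to cell death in prolonged stress, had log2 signals of 7.03, 6.17 and 6.65 in the fibrillar arrays, against 5.68, 5.44 and 5.87 in the 24 h controls. All fibrillar arrays lay above all controls, with replicate 1 the highest. The change was 0.95 (SE 0.22, a fold of 1.94, adjusted p = 0.0454). CEBPB, a C/EBP factor that pairs with ATF4, had log2 signals of 8.85, 8.09 and 8.52 with fibrils, against 7.85, 8.04 and 7.70 in the controls. Its groups were apart only narrowly, because fibrillar replicate 2 stood just above control replicate 2. The change was 0.62 (SE 0.14, a fold of 1.54, adjusted p = 0.0458). ATF4 itself had log2 signals of 10.15, 10.05 and 9.91 in the fibrillar arrays and 9.76, 9.76 and 9.86 in the controls. The groups were apart only narrowly, at 9.91 against 9.86. The difference of 0.24 (SE 0.09) did not pass (adjusted p = 0.213), nor did it in any of 22 alternative fits. CEBPG, the dimer partner of ATF4 on amino acid genes, differed by 0.23 (SE 0.09, adjusted p = 0.226), again with groups apart. ATF5, a close relative of ATF4, and JDP2, a repressor of the same basic leucine zipper family, differed by -0.14 (SE 0.20) and 0.04 (SE 0.23), with overlapping groups.

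Feedback and stress effectors had higher means for 5 of 6 (83.3%, with 49.9% of all genes), and 0 passed. Of the 6, 2 had an unadjusted limma p below 0.05 (33.3%, against 14.2% of all genes). TRIB3, a pseudokinase that restrains ATF4 and DDIT3, had log2 signals of 7.68, 7.31 and 7.59 with fibrils and 6.98, 7.21 and 7.05 in the controls, groups that did not overlap, and a difference of 0.45 (SE 0.13, adjusted p = 0.121). DDIT4, an inhibitor of the growth kinase complex mTORC1, had 8.39, 8.25 and 7.96 in the fibrillar arrays and 7.82, 7.83 and 7.75 in the controls. Its difference was 0.40 (SE 0.13, adjusted p = 0.181), with groups apart. PPP1R15A, the phosphatase subunit that reverses eIF2 phosphorylation (0.22, SE 0.28), VLDLR, a lipoprotein receptor (0.11, SE 0.21), and SESN2, a leucine sensor upstream of mTORC1 (0.05, SE 0.28), did not pass. EIF4EBP1, a repressor of cap-dependent translation, was the member of this group with a lower mean, by -0.15 (SE 0.09, adjusted p = 0.511). CHAC1, which breaks down glutathione, was too dim to be tested. Its log2 signals were 5.25, 3.92 and 3.73 with fibrils and 2.47, 3.499 and 0.14 in the controls, and although the groups were apart, the difference of 2.26 (SE 0.76) had an adjusted p of 0.260 in the fit without a filter and rests on dim values.

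**Figure D1:**
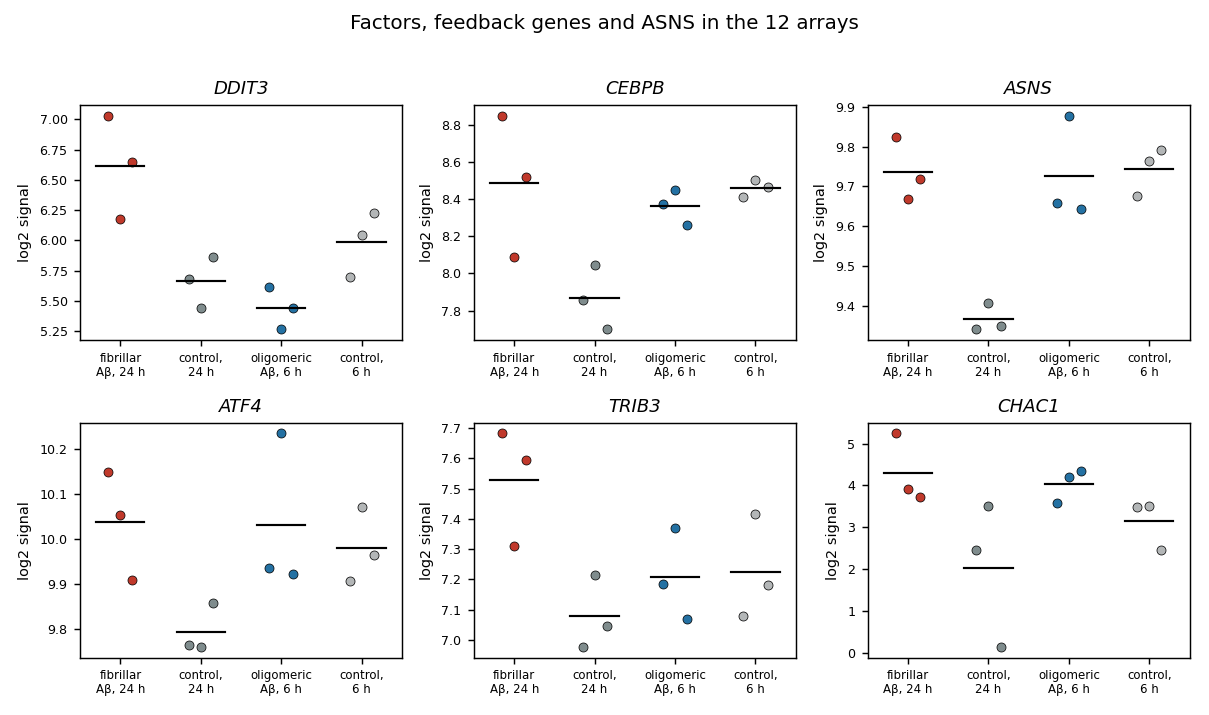
Log2 signal (vertical axes, each with its own range) of 6 members in each array of the 4 groups; points are arrays in replicate order and bars are group means. For all 6 genes the 3 fibrillar arrays lie above the 3 controls of 24 h, by little for CEBPB and ATF4. DDIT3 is lower in the oligomeric arrays than in the controls of 6 h.

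Of the enzymes, ASNS, which makes asparagine from aspartate and glutamine, rose. Its log2 signals were 9.83, 9.67 and 9.72 in the fibrillar arrays and 9.34, 9.41 and 9.35 in the 24 h controls. This was a tight separation, with SDs of 0.08 and 0.04, and the change of 0.37 (SE 0.08, a fold of 1.29) had the smallest p-value among the members (adjusted p = 0.0321). MTHFD2, a mitochondrial one-carbon enzyme, had 10.42, 10.33 and 10.20 with fibrils and 9.74, 10.16 and 10.04 in the controls, which did not overlap and differed by 0.33 (SE 0.10, adjusted p = 0.136). The other enzymes differed in either direction and none passed. SHMT2, which feeds the same one-carbon pathway from serine, differed by 0.21 (SE 0.12) and PSAT1, the serine synthesis aminotransferase, by 0.13 (SE 0.09). PHGDH and PSPH, the first and last enzymes of serine synthesis, differed by -0.24 (SE 0.15) and -0.06 (SE 0.08). The proline enzymes PYCR1 and ALDH18A1 differed by 0.04 (SE 0.13) and -0.03 (SE 0.10), and CTH, which makes cysteine, by -0.20 (SE 0.15). ALDH1L2, another mitochondrial folate enzyme, had the lowest change of all members, -0.66 (SE 0.36, adjusted p = 0.445). It was dim, with log2 signals of 3.09, 4.222 and 4.20 with fibrils, against 4.224, 4.69 and 4.57 in the controls. The groups barely parted, and fibrillar replicate 1 was the lowest array.

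All 8 tested genes of transport had higher means with fibrils (100%, with 49.9% of all genes), and 0 passed. Of the 8, 5 had an unadjusted limma p below 0.05 (62.5%, against 14.2% of all genes). SLC7A11, the cystine importer that feeds glutathione, had log2 signals of 6.89, 6.497 and 6.88 in the fibrillar arrays and 5.72, 6.31 and 5.76 in the controls. The groups did not overlap, control replicate 2 stood near them, and the difference was 0.83 (SE 0.20, adjusted p = 0.0622). SLC7A1, a carrier of arginine and lysine, had 10.05, 9.97 and 9.95 with fibrils and 9.68, 9.84 and 9.51 in the controls, a difference of 0.32 (SE 0.09, adjusted p = 0.0950). SLC1A4, a carrier of small neutral amino acids such as serine, had 6.11, 6.38 and 6.26 in the fibrillar arrays and 5.55, 5.98 and 5.81 in the controls. It differed by 0.47 (SE 0.16, adjusted p = 0.181), and the groups of both genes were apart. SLC38A2, a glutamine and alanine carrier induced by amino acid lack (0.23, SE 0.09), and XPOT, the export receptor of transfer RNA (0.20, SE 0.08), had adjusted p-values of 0.244 and 0.264. SLC1A5, a glutamine exchanger, differed by 0.32 (SE 0.22). SLC3A2, the heavy chain shared by SLC7A5 and SLC7A11, differed by 0.27 (SE 0.23) and SLC7A5, which imports leucine, by 0.11 (SE 0.17). The 8 means were also higher after quantile normalization and median centring, and when the probe sets of a gene were averaged, where SLC7A1 differed by 0.05 and SLC1A4 by 0.17.

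These calls were close to the threshold. In the 12 fits that left out 1 array each, 0 members were called without fibrillar replicate 1 or 3 or 24 h control replicate 1 or 3, and 1 without 24 h control replicate 2, oligomeric replicate 2 or any 6 h control. There were 2 calls without oligomeric replicate 1, 3 without replicate 3 and 4 without fibrillar replicate 2. ASNS was called in 7 of these fits, DDIT3 in 3 and CEBPB in 2. With the 2 groups of 24 h alone, or with a constant prior variance, 0 were called (13 of 30 had an unadjusted limma p below 0.05 with all arrays, 43.3%, against 14.2% of all genes). Without fibrillar replicate 1, which had the highest 3′ less 5′ difference of the 24 h arrays for GAPDH, 0.81 against 0.47 to 0.52 in the controls, the changes of DDIT3 and CEBPB were 0.75 and 0.44 and that of ASNS 0.33. The ACTB 3′ less 5′ difference was 2.48 to 3.06 with fibrils, against 2.34 to 2.65 in the 24 h controls, and the 18S signal was 11.80 to 11.85, against 11.41 to 11.79, without overlap.

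Among the markers, 2 of 6 mesenchymal genes above the filter lay wholly higher with fibrils (10.9% of all genes) and none wholly lower (8.73%). CD44, a cell surface receptor for hyaluronan, had log2 signals of 5.11 to 5.31 with fibrils, against 4.10 to 4.75 in the 24 h controls, and WWTR1, a coactivator of the Hippo pathway, 5.91 to 6.32, against 5.79 to 5.88. Of the others above the filter, SNAI2, FN1 and VIM had lower means with fibrils (7.98, 9.38 and 13.12, against 8.16, 9.49 and 13.14). YAP1 had a higher mean (8.78, against 8.62). The summed signal of the 8 mesenchymal genes, most of it from VIM, overlapped, at 9943 to 10639 with fibrils and 9852 to 11695 in the controls. The epithelial sum was 59.3 to 79.8 with fibrils and 83.2 to 99.7 in the controls. Of its 2 genes above the filter, KRT18 lay wholly lower (mean 4.31, against 5.25), while EPCAM had a higher mean (4.99, against 4.52). Of 11 neuroblastoma genes above the filter 1, HAND2, lay wholly lower with fibrils, which is near the 8.73% of all genes. The part of RNA quality, 18S signal or cell type in the fibrillar results was not tested. In bulk RNA, more cells with a high level and more RNA per cell cannot be told apart.

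With oligomeric Aβ, none of the 30 members passed, as none of the 11767 genes did (0%). Of the members 3 had an unadjusted limma p below 0.05 (10%), against 2.78% of all genes. The median change was 0.04, against -0.0046 over all genes, and 18 members had higher means (60%, with 48.1% of all genes), but 8 did after median centring, so no direction is given for the set. For 2 members the oligomeric arrays lay wholly above the controls (6.67%, with 3.59% of all genes) and for 2 wholly below (6.67%, with 3.76%). DDIT3 had log2 signals of 5.62, 5.26 and 5.44 in the oligomeric arrays, against 5.69, 6.05 and 6.23 in the 6 h controls. Every oligomeric array was below every control, and the difference was -0.55 (SE 0.22, limma adjusted p = 0.999987). SLC1A4 had 6.32, 6.44 and 6.16 with oligomers and 6.81, 6.63 and 6.49 in the controls, likewise below, by -0.34 (SE 0.16). CTH had 6.96, 6.77 and 7.05 with oligomers and 6.55, 6.51 and 6.56 in the controls, above them by 0.38 (SE 0.15). ATF4 had 9.94, 10.24 and 9.92 in the oligomeric arrays and 9.91, 10.07 and 9.97 in the controls, with overlap and a difference of 0.05 (SE 0.09). ASNS had 9.66, 9.88 and 9.64 with oligomers and 9.68, 9.76 and 9.79 in the controls, a difference of -0.02 (SE 0.08).

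**Figure D2:**
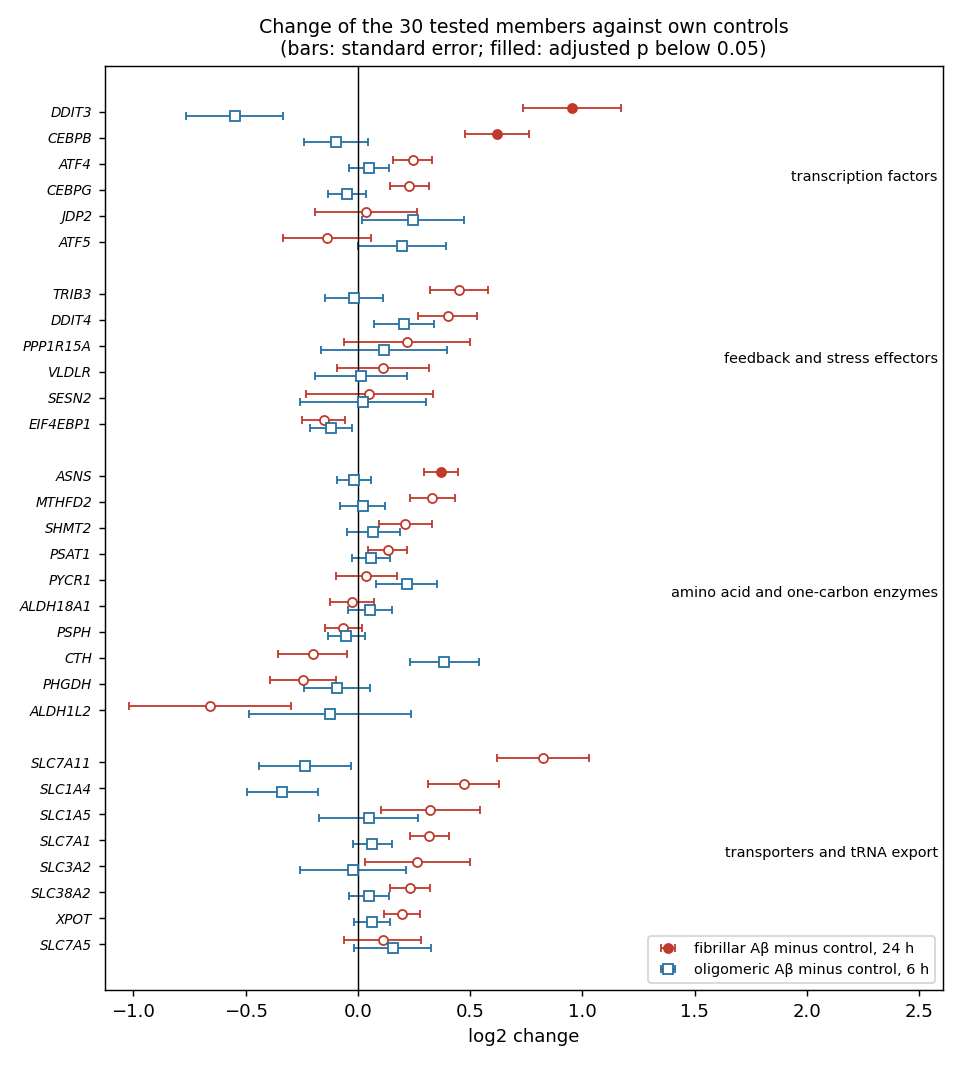
Log2 change of each of the 30 tested members (rows, by role) for fibrillar Aβ at 24 h and oligomeric Aβ at 6 h, each against its own controls; points are model estimates, bars standard errors, and filled points passed an adjusted p of 0.05. DDIT3, CEBPB and ASNS are filled for fibrils, none is filled for oligomers, and all 8 transport genes lie to the right of 0 for fibrils.

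The difference of the responses, fibrillar less oligomeric, was tested as a contrast of its own. No member passed (0%, with 0.0425% of all genes called, 0.0085% higher and 0.034% lower), while 9 of 30 had an unadjusted limma p below 0.05 (30%), against 8.53% of all genes. DDIT3 came nearest, with a difference of 1.502 (SE 0.31, adjusted p = 0.0987), made of 0.95 with fibrils and -0.55 with oligomers. It was called in 3 of 20 alternative fits, with adjusted p-values from 0.0116 to 0.357. SLC7A11 followed with 1.06 (SE 0.29, adjusted p = 0.240). Its oligomeric arrays had log2 signals of 6.10, 6.67 and 6.19, against 6.23, 6.77 and 6.67 in the 6 h controls, a difference of -0.24 (SE 0.20). For SLC1A4 the responses differed by 0.81 (SE 0.22, adjusted p = 0.242) and for ASNS by 0.39 (SE 0.11, adjusted p = 0.243). The difference was above 0 for 20 members (66.7%, with 51.8% of all genes). The median over the members was 0.14, against 0.0097 over all genes, and median centring moved the median of all genes by 0.14 in this contrast.

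Between the control groups, 12 of the 30 members changed, 9 lower and 3 higher at 24 h than at 6 h. That is 40% of the members, against 11.7% of all genes (7.92% lower, 3.76% higher). The median change was -0.20, against -0.02 over all genes, and 10 members had higher means (33.3%, with 47.4% of all genes). In 13 members the 24 h controls lay wholly below those of 6 h (43.3%, with 18.9% of all genes), and in 4 wholly above (13.3%, with 13.7%). Median centring, which moved the median of all genes by -0.13 here, gave 14 lower and 1 higher. The 24 h controls also had a lower 3′ less 5′ difference of GAPDH, 0.47 to 0.52 against 0.77 to 0.83, and a higher 18S ribosomal RNA signal, 11.4 to 11.8 against 9.31 to 10.3. Beside 18.9% of all genes, 3 of 6 mesenchymal markers above the filter lay wholly lower at 24 h. These were CD44 (4.10 to 4.75, against 5.15 to 5.64 at 6 h), YAP1, the other Hippo coactivator (8.58 to 8.66, against 8.84 to 9.09), and WWTR1 (5.79 to 5.88, against 6.21 to 6.46). The summed signal of that list overlapped, at 9852 to 11695 at 24 h and 10726 to 11061 at 6 h. Of 11 neuroblastoma markers above the filter 4 lay wholly lower at 24 h and 2 wholly higher, with 18.9% and 13.7% of all genes. The part of RNA quality, 18S signal or cell type in these changes was not tested.

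Transport held 4 of the falls, among its 8 tested genes (50%, with 7.92% of all genes called lower). SLC3A2 had log2 signals of 4.97, 5.54 and 5.21 in the 24 h controls, against 6.23, 6.20 and 6.22 in the 6 h controls. Every array of 24 h was lower, and the change was -0.98 (SE 0.23, adjusted p = 0.0131). SLC1A4 had 5.55, 5.98 and 5.81 at 24 h and 6.81, 6.63 and 6.49 at 6 h, a change of -0.86 (SE 0.16, adjusted p = 0.00234). SLC1A5 had 4.73, 5.38 and 4.85 at 24 h and 5.39, 5.88 and 5.84 at 6 h. Its groups nearly met, and its change of -0.71 (SE 0.22) was near the threshold (adjusted p = 0.0468) and was called in 3 of the 12 fits with an array left out. SLC7A1 had 9.68, 9.84 and 9.51 at 24 h and 10.17, 10.41 and 10.18 at 6 h, a change of -0.58 (SE 0.09, adjusted p = 0.000583). SLC7A11 and SLC7A5 differed by -0.63 (SE 0.20, adjusted p = 0.0580) and -0.52 (SE 0.17, adjusted p = 0.0627), and SLC38A2 and XPOT by 0.12 and -0.0033.

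Among the enzymes SHMT2, PHGDH and ASNS fell, and CTH and PSPH rose. SHMT2 had log2 signals of 8.35, 8.49 and 8.33 in the 24 h controls, against 9.25, 9.22 and 8.77 in the 6 h controls, a change of -0.70 (SE 0.12, adjusted p = 0.00153). PHGDH had 7.499, 7.39 and 7.10 at 24 h and 7.67, 8.07 and 7.91 at 6 h, a change of -0.56 (SE 0.15, adjusted p = 0.0207). ASNS had 9.34, 9.41 and 9.35 at 24 h and 9.68, 9.76 and 9.79 at 6 h, a change of -0.38 (SE 0.08, adjusted p = 0.00436). All 3 genes had groups that did not overlap. PSPH, in the same short pathway as PHGDH, moved the other way, with 9.07, 9.08 and 8.98 at 24 h and 8.52, 8.73 and 8.64 at 6 h, a change of 0.42 (SE 0.08, adjusted p = 0.00414). CTH had 7.61, 6.99 and 6.93 at 24 h and 6.55, 6.51 and 6.56 at 6 h, a change of 0.63 (SE 0.15, adjusted p = 0.0143). CTH was highest in 24 h control replicate 1.

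EIF4EBP1 had the smallest p-value of the members over time, with log2 signals of 7.82, 7.99 and 7.85 in the 24 h controls and 8.54, 8.54 and 8.47 in the 6 h controls. Its change was -0.63 (SE 0.09, adjusted p = 0.000558). DDIT4 had 7.82, 7.83 and 7.75 at 24 h and 7.43, 7.44 and 7.22 at 6 h. It rose by 0.44 (SE 0.13, adjusted p = 0.0421) and was called in 6 of the 12 fits with an array left out. CEBPB had 7.85, 8.04 and 7.70 at 24 h and 8.41, 8.50 and 8.47 at 6 h, a change of -0.60 (SE 0.14, adjusted p = 0.0131). ATF4 differed by -0.19 (SE 0.09, adjusted p = 0.187) and DDIT3 by -0.33 (SE 0.22, adjusted p = 0.366). EIF4EBP1, SLC7A1, SHMT2, SLC1A4 and ASNS were called in every alternative fit in which they were tested. The count of 12 was 7 without 6 h control replicate 2 and lay between 8 and 13 in the other fits with an array left out.

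**Figure D3:**
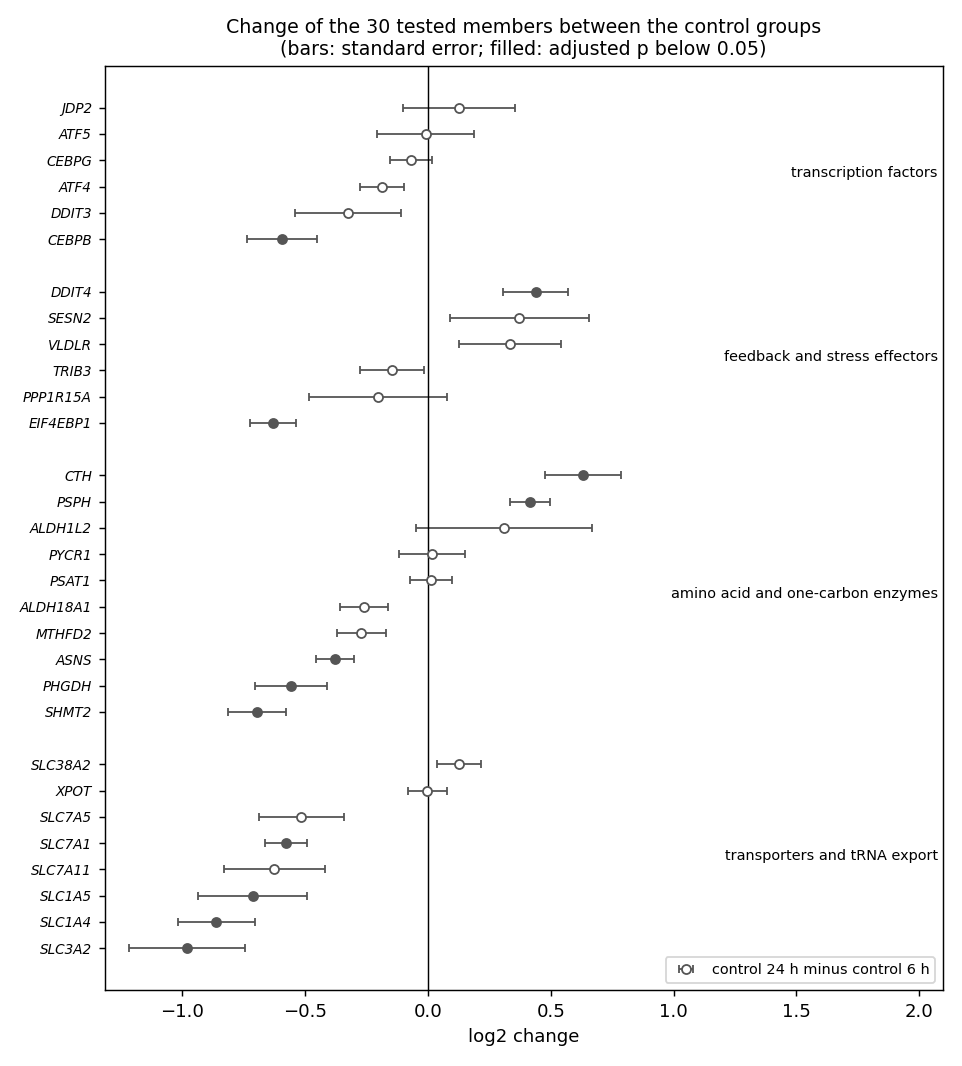
Log2 change of the 30 tested members between the 24 h and the 6 h controls (rows, by role); points are model estimates, bars standard errors, and filled points passed an adjusted p of 0.05. Most transport genes lie left of 0, down to -0.98 for SLC3A2, while DDIT4, CTH and PSPH are filled on the right.

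The 24 h controls stand in both the fibrillar and the time comparison, so the signs of these are not independent, and only the group levels are set side by side. ASNS averaged 9.74 ± 0.08 with fibrils, 9.37 ± 0.04 in the 24 h controls, 9.73 ± 0.13 with oligomers and 9.74 ± 0.06 in the 6 h controls (SD, n = 3 each). CEBPB averaged 8.49 ± 0.38 with fibrils, 7.87 ± 0.17 in the 24 h controls, 8.36 ± 0.09 with oligomers and 8.46 ± 0.05 in the 6 h controls. For both genes the 24 h controls were the lowest group and the other 3 means lay close together. SLC3A2 was low in both 24 h groups, at 5.502 ± 0.26 with fibrils and 5.24 ± 0.29 in the controls, against 6.19 ± 0.51 with oligomers and 6.22 ± 0.01 in the 6 h controls. EIF4EBP1 was also low in both 24 h groups, at 7.73 ± 0.17 and 7.89 ± 0.09 in the fibrillar and control arrays of 24 h, and 8.40 ± 0.07 and 8.52 ± 0.04 in the oligomeric and control arrays of 6 h. DDIT3 had its highest mean with fibrils, 6.62 ± 0.43, and its lowest with oligomers, 5.44 ± 0.18, with 5.66 ± 0.21 and 5.99 ± 0.27 in the controls of 24 h and 6 h.

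**Figure D4:**
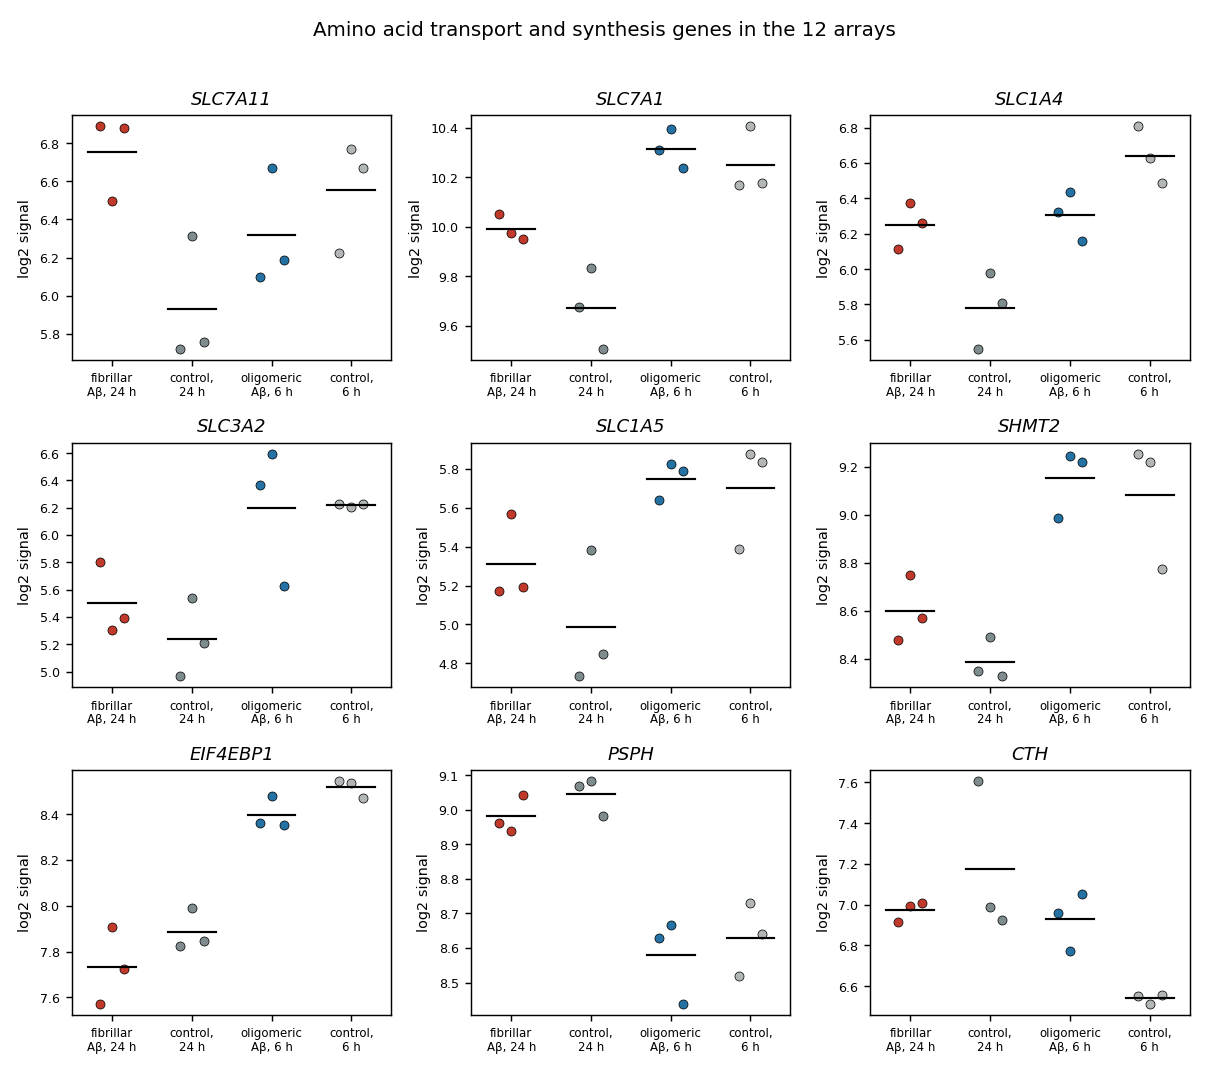
Log2 signal (vertical axes, each with its own range) of 9 transport, synthesis and translation genes in each array; points are arrays in replicate order and bars are group means. SLC3A2, SHMT2 and EIF4EBP1 are low in both groups of 24 h, PSPH is high in both, and SLC7A11 is low in the controls of 24 h.

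The remaining dim members gave little. NUPR1, a small stress-induced nuclear protein, ranged from -0.14 to 3.48 in the fibrillar arrays and from 1.02 to 3.51 in the 24 h controls. STC2, a secreted stanniocalcin, ranged from 2.72 to 4.11 with fibrils and from 0.27 to 3.48 in the 24 h controls. SLC6A9, a glycine transporter, ranged from 0.21 to 3.91 with fibrils and from 0.75 to 2.55 in the 24 h controls. The groups of each overlapped.

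Several members are read by more than 1 probe set, and these did not always give the same sign. For 15 members with 20 further probe sets above the filter, 11 of the 20 differed with fibrils in the same direction as the probe set used. SLC7A11 had 1.06 in its other probe set, with groups apart, and CEBPG 0.32, also apart. The further probe sets of SLC7A1 had -0.18 and -0.0047 beside 0.32, those of SLC1A4 0.06 and -0.0069 beside 0.47, and that of MTHFD2 -0.27 beside 0.33. The last of these, and 1 of SLC1A4, have an identifier ending by which the manufacturer flags probes that may cross-hybridize, as does the probe set used for SLC38A2. ATF5 had 1.53 in its other probe set above the filter beside -0.14. That probe set was dim, with a mean of 4.04 over the arrays and 2.90 in the 24 h controls, and its groups overlapped. SHMT2 had -0.42 in 1 of its others, with the fibrillar arrays wholly below the controls, beside 0.21. DDIT3, CEBPB and ASNS had no other probe set above the filter. For the change between the control groups, 5 of the 12 called members had further probe sets, and 8 of these 9 had the same sign, the exception being 1 of PSPH (-0.23).

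**Figure D5:**
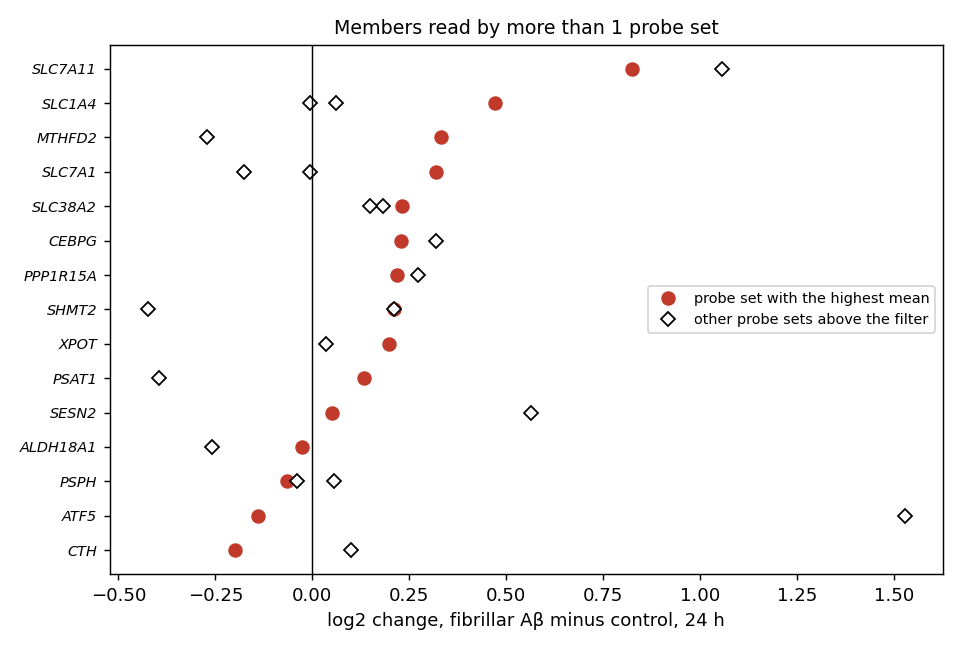
Log2 change with fibrillar Aβ against the 24 h controls for the 15 members read by more than 1 probe set above the filter; filled circles are the probe sets used and open diamonds the others. The probe sets of SLC7A11, CEBPG and SLC38A2 lie on the same side of 0, while those of SLC7A1, MTHFD2, PSAT1 and ATF5 lie on both sides.

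Upstream of ATF4, none of the 4 eIF2 kinases passed in any of the 4 comparisons (limma). EIF2AK3, also called PERK, the kinase of the endoplasmic reticulum, had log2 signals of 10.21, 9.81 and 10.17 with fibrils and 9.84, 9.67 and 9.67 in the controls, a difference of 0.34 (SE 0.12, adjusted p = 0.188) with overlapping groups. EIF2AK2, the kinase that senses double-stranded RNA, differed by 0.11 (SE 0.08), EIF2AK1, the haem-regulated kinase, by -0.06 (SE 0.07), and EIF2AK4, also called GCN2, the sensor of uncharged transfer RNA, by -0.07 (SE 0.11). Of 17 genes of eIF2 control tested, 1 rose and 1 fell with fibrils (11.8%, with 1.19% of all genes), both in the phosphatase that acts on eIF2. PPP1R15B, its constitutive regulatory subunit, rose by 0.33 (SE 0.07, adjusted p = 0.0398), with 9.73, 9.57 and 9.71 in the fibrillar arrays and 9.42, 9.32 and 9.28 in the controls. PPP1CA, a catalytic subunit of protein phosphatase 1 with many partners, fell by 0.51 (SE 0.12, adjusted p = 0.0454), with 8.24 in the highest fibrillar array against 8.54 in the lowest control. Neither gene's groups overlapped. The other catalytic subunits on the list, PPP1CB and PPP1CC, differed by 0.10 (SE 0.09) and -0.05 (SE 0.06), with overlapping groups, and did not pass.

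Of 20 tested genes held as other ATF4 targets, 1 rose with fibrils, which is 5% of the list, against 0.799% of all genes called higher. It was ATF3, a transcription factor also induced by other stress pathways, with a change of 1.10 (SE 0.26, adjusted p = 0.0474). Its log2 signals were 8.27, 6.70 and 7.42 with fibrils, against 6.27, 6.35 and 6.46 in the 24 h controls. The fibrillar arrays spread widely, with replicate 1 the highest. Higher means were seen for 15 (75%, with 49.9% of all genes), and the median was 0.18, against -0.00051 over all genes. Of 17 cytosolic aminoacyl-tRNA synthetases, which charge transfer RNA, 1 rose with fibrils, YARS1, by 0.34 (SE 0.08, adjusted p = 0.0454), which is 5.88%, and the median was 0.03. Between the control groups 5 of the 17 synthetases were lower at 24 h and none higher (29.4% called), against 7.92% of all genes called lower. Of the 20 other targets 2 were lower (10%), which is near that background. Of the 17 genes of eIF2 control 2 were lower and 1 higher (17.6% called, with 11.7% of all genes called in either direction). With oligomers none of these lists had a call, or a member with an unadjusted limma p below 0.05.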

How the data were processed

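RNA of 12 SH-SY5Y samples was measured on Affymetrix arrays. The authors deposited a log2 signal for each probe set. MAS5 is named without a version in the submitters' processing notes. Every array had a mean linear signal of 100 after trimming at 2% and 98%, so no further normalization was applied. For arrays the number limits the precision. Genes were named from the platform annotation, with symbols updated through gene IDs. Probe sets with 1 symbol were used, the brightest for each gene, with a filter at the median of all probe set means.

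A group-means model over all 12 arrays was fitted with limma 3.58.1 in R 4.3.3, with an intensity trend in the prior variance, for 4 contrasts, and p-values were adjusted over all 11767 genes. The members, lists and tests were chosen with earlier results of these data known. Values in every array are given for members called in any contrast, for ATF4 and DDIT3, and for the 3 smallest p-values of contrasts with fewer than 3 calls, and a few further members with groups apart are given so after their values were seen. Other pathway genes named are the 4 eIF2 kinases and those called with fibrils or oligomers. PPP1CB and PPP1CC are named beside PPP1CA after its call was seen.

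In simulated data of 11767 genes with 200 changed, 66% of 1.5-fold and 82% of 2-fold changes were recovered for the fibrillar contrast, with 3 false among 151 calls. For the oligomeric contrast 53% and 71% were recovered, with 12 false among 136, and between controls 55% and 79%, with 8 false among 142. The simulated noise was normal and independent between genes, with no shift shared by the genes of an array. The rates check the fit in that setting and do not measure how reliable the calls given here are. Alternatives were another normalization, filter, probe set rule, prior, weights, samples, threshold or scale, the replicate number as a block, and each array left out. The number of a replicate was not used as a pair, because the labels tie it to no shared culture or day. DNA stretches came from RefSeq promoters.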

Additional observations from a re-analysis of the deposited data

Results flagged for a closer look

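In 4 members every fibrillar array lay on 1 side of its control mean and every oligomeric array on the opposite side of its own. The share of all genes with this pattern was not counted, so it is not read as a trait of the members. The rule compares arrays with control means, so groups may overlap, as for CEBPB with oligomers and CTH with fibrils. For DDIT3 the responses differed by 1.502 (limma adjusted p = 0.0987), with 0.95 for fibrils and -0.55 for oligomers. For SLC1A4 they differed by 0.81 (adjusted p = 0.242), with 0.47 and -0.34. The further SLC1A4 probe sets above the filter had 0.06 and -0.0069 for fibrils and -0.12 each for oligomers. For CEBPB the responses differed by 0.72 (adjusted p = 0.252), with 0.62 and -0.10. CTH ran the other way, with a difference of -0.59 (adjusted p = 0.437), -0.20 for fibrils and 0.38 for oligomers. Its other probe set above the filter had 0.10 for fibrils and 0.15 for oligomers, so the opposite signs of CTH rest on the probe set used. None of these differences passed, and peptide form and time cannot be told apart.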

How the results depend on the processing

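The 3 calls with fibrils became 1 without a filter, 1 with a gene's probe sets averaged, 0 with a constant prior variance and 0 with the compared groups alone. They became 5 at an adjusted p below 0.1, and 0 to 4 with an array left out. All calls under these settings were higher with fibrils. Over all genes the 140 calls of this comparison ran from 7 with a constant prior variance to 269 with array weights. With the replicate number as a block 5 members were called. After each gene's group mean was taken out, what remained correlated by 0.03 to 0.08 between same-numbered fibrillar and 24 h control arrays. Each fibrillar array was best with its own number. At 6 h these correlations ran from -0.02 to 0.09, and 1 of 3 oligomeric arrays was best with its own number. The numbers were therefore not taken as pairs. The block moved no other count of members by over 1.5 times. For the difference of the responses, 1 member, DDIT3, was called after median centring, with array weights and at an adjusted p below 0.1, and 0 to 2 were with an array left out. The 12 calls between the controls became 7 to 13 with an array left out and stayed within 1.5 times otherwise. The oligomeric count was 0 in every setting run. The change of ATF4 with oligomers, 0.05, was -0.0142 after median centring and lay between -0.052 (without oligomeric replicate 2) and 0.105 with an array left out. The cause of these shifts was not tested.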

Other observations

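The arrays numbered 2 had many members above the mean of their own controls. At 24 h these were 25 of 30 with fibrils and 23 in the control, and at 6 h 22 with oligomers and 22 in the control. The other arrays of the control groups had 7 to 16, and those with oligomers 12 and 14. With fibrils the other arrays had 19 and 23, so the 25 stood out little there.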
